A study of Rattus norvegicus with 12 samples.

Results

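Keratins are the intermediate filament proteins of epithelial cells, and their genes were followed here in dispersed cells of the rat cervix. Every probe that is not a control and whose gene name in the scanner files begins with Krt directly followed by a digit was taken, with the keratin-associated Krtap genes left out. This gave 44 probes for 44 genes, of 26612 gene names on the array. Of the 44, 40 were matched to a RefSeq gene, and 2 of the matches carried another name there (Krt1-5 is Krt36 and Krt83 is Krt87 in RefSeq). The names printed on the array are kept below.

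The samples came from 12 Sprague Dawley rats, 3 in each of 4 groups. D21 rats were pregnant and studied on day 21 after breeding, and NP rats were non-pregnant and in proestrus. All rats were perfused, and the trimmed cervix was minced and dispersed with collagenase. In the whole groups (D21 whole, rats 5, 6 and 7, and NP whole, rats 8, 9 and 10) the dispersed cells were frozen directly. In the Mφ-depleted groups (D21 depleted, rats 1, 2 and 4, and NP depleted, rats 5, 6 and 7) macrophages were first removed with the ED1 antibody and magnetic beads, so these cells also went through incubation and washing steps that whole cells did not. The depleted cells came from other animals than the whole cells, and a rat number that recurs between D21 and NP is not the same rat. The rats were adult females, and no age in days was given in the sources used here.

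RNA from each rat was hybridised to its own 1-colour array. Levels are log2 intensities minus the log2 of each array's 75th percentile, so that a level of 0 is a spot as bright as that percentile. Between 44.9% and 61.7% of probes were well above background on an array. The 12 arrays were spread over 4 slides and 3 scan days, and no slide held all 4 groups. The Mφ list fell with depletion, with a mean over 14 genes of 0.52 to 1.28 on the 6 whole arrays and -3.74 to -2.47 on the 6 depleted arrays; in NP depleted cells 5 of the 14 were above background on no array. The smooth muscle list (10 genes) also stood lower on the depleted arrays, at 3.62 to 4.84 on whole arrays and -0.09 to 2.04 on depleted arrays. The fibroblast list (10 genes) ran from 3.73 to 4.12 on whole and from -1.33 to 2.71 on depleted arrays. The depleted suspensions thus differed from whole cervix in stromal as well as Mφ transcripts, and fewer cells of a type cannot be told apart from less RNA per cell in any value below.

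Keratins assemble as pairs of an acidic type I and a basic type II chain. Apart from Krt18, and from Krt5 and Krt7, whose probes the files do not place, all keratin probes lie on chromosomes 7 and 10. Simple, single-layered epithelium such as that of glands and ducts is known for Krt8 and Krt18, with Krt7, Krt19 and Krt20. The basal layer of stratified epithelium is known for Krt5, Krt14 and Krt15. Its upper layers carry Krt4 and Krt13 where the surface is a moist mucosa, and Krt1 and Krt10 where it cornifies, while Krt6, Krt16 and Krt17 are known for wounded or rapidly renewing epithelium. Hair keratins such as Krt85 build the hard fibre of the hair shaft. In the rodent, the epithelium of the cervix and vagina is known to cycle with ovarian steroids between stratified squamous and mucus-bearing states.

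The oligonucleotides that measured the keratins on which the results turn are shown here, because each level below is the brightness of 1 such probe of 60 bases. They are written 5′ to 3′ in lower case as the scanner files give them, with positions on rat build rn4 from the same files. Those of Krt8 and Krt19 stand for the simple keratins, that of Krt4 for the mucosal layer, that of Krt5 for the basal layer and that of Krt16 for the keratins that varied most between rats. Those of Krt83 and Krt85 are shown so that the difference between these probes can be seen.
Krt8: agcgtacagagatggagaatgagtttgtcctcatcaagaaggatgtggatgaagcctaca
Krt19: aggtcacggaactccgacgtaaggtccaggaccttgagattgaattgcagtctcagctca
Krt4: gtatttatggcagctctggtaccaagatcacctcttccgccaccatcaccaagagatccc
Krt5: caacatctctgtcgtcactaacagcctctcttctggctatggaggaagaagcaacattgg
Krt16: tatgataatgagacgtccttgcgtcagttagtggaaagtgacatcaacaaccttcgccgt
Krt83: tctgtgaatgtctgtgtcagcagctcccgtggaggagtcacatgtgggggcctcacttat
Krt85: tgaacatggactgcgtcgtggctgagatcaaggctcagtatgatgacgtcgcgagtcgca
All mapped probes of this set lie on the minus strand. The Krt8 probe is placed at chr7:140716967-140717949, an interval longer than the probe, so it crosses an intron. Krt4 is at chr7:140622673-140622732, Krt85 at chr7:140263682-140263741 and Krt83 at chr7:140178928-140179384. Krt19 is at chr10:89081437-89081496 and Krt16 at chr10:89176869-89176928, and the files give no position for the Krt5 probe. No run of 8 or more bases is shared by the Krt83 and Krt85 probes. Probes were compared only with probes, so whether either also binds the other gene's transcript was not tested. Among all 946 pairs of keratin probes the longest shared run was 16 bases, between Krt25 and Krt27, neither of which was tested. The Krt18 probe is placed by the files on chromosome 2, where no other keratin probe lies, and it shares a run of 24 bases with a probe for LOC303341, so which transcripts it measured is uncertain.

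A keratin was tested where every array of a compared group lay well above background, which held for 21 of the 44. Of these, 16 were so on all 12 arrays. No keratin spot was saturated. The remaining 23 were not tested. For 15 of them no array was well above background, which covers Krt24, Krt42 and Krt77, the inner root sheath keratins Krt26, Krt27, Krt72 and Krt73, and the hair keratins Krt32, Krt33a, Krt33b, Krt34, Krt35, Krt39, Krt82 and Krt84. The other 8 (Krt1-5, Krt2, Krt9, Krt25, Krt28, Krt31, Krt40 and Krt76) were above background on some arrays only.

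The first comparison asked how the cervix on the day before birth differs from the non-pregnant cervix. All 5 simple keratins were higher in D21 whole than in NP whole cervix, and Krt4 of the mucosal layer was lower. By the threshold of the Methods (unadjusted p below 0.01 and at least 2-fold), 6 of the 20 keratins tested were higher, against 5.39% of all 14056 genes tested, and 1 was lower, against 3.1% of all genes. These 6 were the simple keratins and Krt75. At an adjusted p below 0.05, 5 of the 20 passed, against 5.82% of all genes. The median log2 fold change over the 5 simple keratins was 2.08, and over all genes tested it was -0.08.

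Krt18, the type I partner of Krt8, stood at 5.74, 5.60 and 5.73 in D21 whole rats 5, 6 and 7 and at 2.30, 4.10 and 2.86 in NP whole rats 8, 9 and 10. All D21 values lay above all NP values. The log2 fold change was 2.60 ± 0.45 (SE), a 6.06-fold difference (adjusted p = 0.00968, limma with Benjamini-Hochberg adjustment over all genes tested).

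Krt8, the type II chain of the same filament, read 5.07, 5.68 and 5.35 in D21 whole and 2.71, 3.83 and 3.34 in NP whole. The groups did not overlap, and the log2 fold change was 2.08 ± 0.50 (SE, adjusted p = 0.0365). Krt19, a small type I chain of ducts, read 5.28, 6.28 and 5.49 in D21 whole and 3.28, 3.61 and 4.19 in NP whole. Its log2 fold change was 1.99 ± 0.31 (SE, adjusted p = 0.00752), and no D21 rat overlapped with an NP rat.

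Krt20, a type I chain best known from intestinal and urothelial cells, differed by more. It read 1.25, 1.05 and 1.72 in D21 whole and -1.67, -1.66 and -1.03 in NP whole. Its change was 2.79 ± 0.69 (SE, adjusted p = 0.0387). Krt7, a type II chain of glandular epithelium, read 5.02, 5.50 and 5.21 against 3.77, 2.85 and 4.03, a log2 fold change of 1.69 ± 0.52 (SE). It passed the unadjusted threshold, but its adjusted p was 0.0793. By the methods' test, without limma's shared spread, Krt7, Krt8 and Krt18 did not pass the threshold, and Krt19 and Krt20 did.

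**Figure D1:**
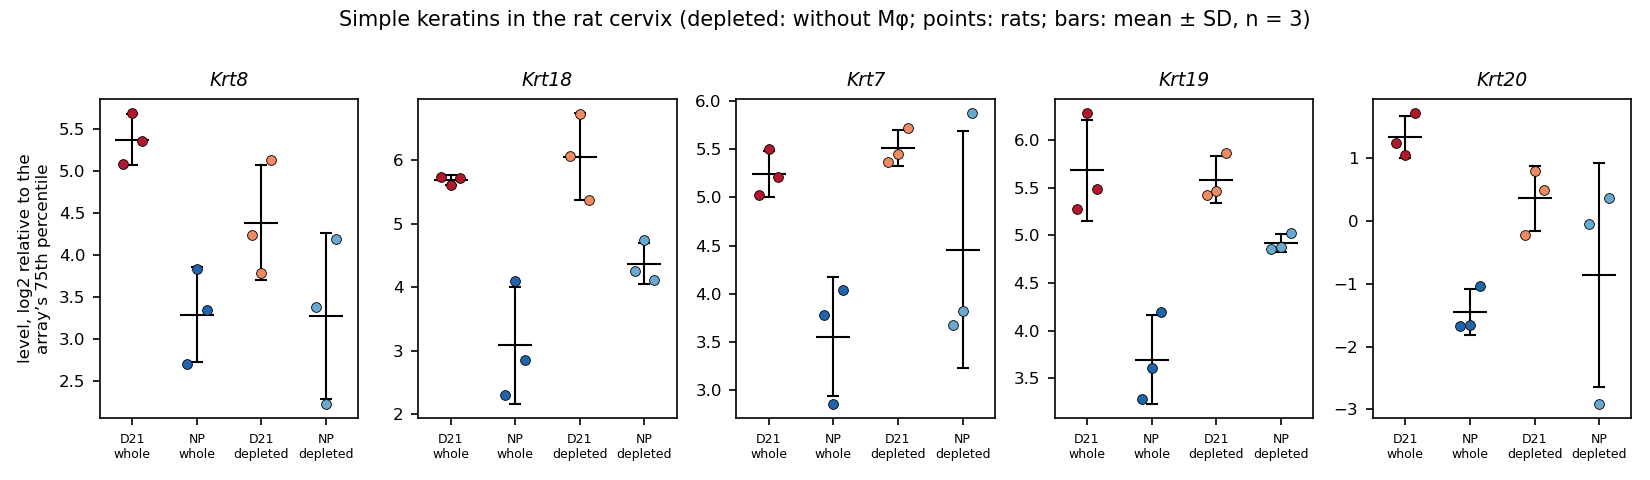
Levels of Krt8, Krt18, Krt7, Krt19 and Krt20 (y axis, log2 over each array's 75th percentile) in each rat of the 4 groups (x axis), with bars for the mean ± SD of 3 rats and a separate scale in each panel. In every panel the 3 D21 whole rats sit above the 3 NP whole rats, as in the Krt20 panel with 1.05 to 1.72 against -1.67 to -1.03.

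Other genes of epithelial identity moved in the same direction in whole cervix. Of 10 such genes that are not keratins, 7 were higher in D21 whole, against 5.39% of all genes tested, and none was lower, against 3.1%. Their median log2 fold change was 1.34. Among them were Cldn7, a tight junction claudin, with a log2 fold change of 2.47 (adjusted p = 0.00968), and Epcam, an epithelial adhesion molecule, with 1.66 (adjusted p = 0.0262). The smooth muscle list was lower in D21 whole, at 3.62 to 4.04, than in NP whole, at 4.40 to 4.84, and its part in the keratin differences was not tested.

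Krt4, the mucosal type II keratin of upper stratified layers, moved the other way. It read -3.12, -2.30 and -4.14 in D21 whole, where 2 of 3 arrays were well above background, and 1.11, -0.45 and -0.08 in NP whole. Its log2 fold change was -3.38 ± 0.78 (SE), that is 10.4-fold lower in D21 (adjusted p = 0.0313). Krt13, its usual type I partner, did not follow. It read 6.13, 6.79 and 6.35 in D21 whole and 5.97, 5.72 and 5.90 in NP whole, and the log2 fold change of 0.56 ± 0.42 (SE) did not pass the test (adjusted p = 0.460).

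No basal keratin passed the threshold between D21 whole and NP whole. Krt5, the type II chain of basal cells, had a log2 fold change of 0.27 ± 0.30 (SE, adjusted p = 0.632). Krt15 came closest at 0.80 ± 0.27 (SE, adjusted p = 0.0997), with D21 values of 7.06 to 7.58 that lay above NP values of 6.35 to 6.63. Krt14 gave -1.30 ± 0.76 (SE, adjusted p = 0.341). The median over these 3 basal keratins was 0.27.

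The same question was asked of cells without Mφ. In D21 depleted against NP depleted cells, 3 of 21 keratins tested were higher (background 5.44% of 13406 genes) and 1 was lower (background 2.06%). At an adjusted p below 0.05, 3 of 21 passed, against 4.59% of all genes. The 5 simple keratins all had positive log2 fold changes, with a median of 1.12, but only Krt18 passed the threshold. Krt18 read 6.06, 6.73 and 5.37 in D21 depleted and 4.26, 4.74 and 4.12 in NP depleted, a log2 fold change of 1.68 ± 0.44 (SE), with an adjusted p of 0.0568. Krt7 overlapped between the groups, as NP depleted rat 7 read 5.87 where rats 5 and 6 read 3.67 and 3.82. For Krt7 and Krt8 the threshold was passed when NP depleted rat 7 was left out. The log2 fold changes were then 1.77 and 1.58 (limma, adjusted p = 0.0176 and 0.0875). That rat was the highest of its group for both genes, so leaving it out could only widen the difference.

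Krt4 was again lower in D21, at -2.12, -2.03 and 0.89 in D21 depleted and 2.55, 3.59 and 2.39 in NP depleted. This gave a log2 fold change of -3.93 ± 0.78 (SE, adjusted p = 0.0155). D21 depleted rat 4 stood above the other two of its group but stayed below every NP depleted rat. The other keratins that were higher in D21 depleted cells were Krt83 and Krt85, described with the hair keratins below.

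Whether depletion changed keratin levels was asked within D21 and within NP rats. Krt5 was lower in whole than in depleted cells in both states, Krt15, Krt4 and Krt19 passed the same test in NP rats, and Krt75, Krt83 and Krt85 were higher in whole cells in both. Krt5 read 5.12, 5.60 and 5.14 in D21 whole and 7.18, 7.59 and 7.41 in D21 depleted. In NP rats it read 5.31, 4.72 and 5.03 in whole and 8.14, 7.31 and 8.32 in depleted cells. Whole and depleted values were far apart in both states. The log2 fold change of whole over depleted was -2.10 ± 0.30 (SE, adjusted p = 0.00123) in D21 and -2.90 ± 0.30 (SE, adjusted p = 3.59e-05) in NP rats, that is 4.30-fold and 7.49-fold lower in whole cells.

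Within D21, Krt5 was the 1 keratin of 20 tested that was lower in whole cells, where 7.72% of all 14256 genes tested were. Within NP, 4 of 20 were lower in whole cells, against 10.8% of 13409 genes, and they were Krt5, Krt15, Krt4 and Krt19. At an adjusted p below 0.05, 4 of 20 keratins passed in D21, against 22.4% of all genes, and 8 of 20 in NP rats, against 32.8%. These shares lie near or below the background in D21 and somewhat above it in NP rats. Krt15, a type I chain of basal cells, read 6.51, 6.63 and 6.35 in NP whole and 8.29, 8.53 and 7.99 in NP depleted (log2 fold change -1.77 ± 0.26 SE, adjusted p = 0.000449). In D21 it read 7.06, 7.58 and 7.26 in whole and 7.92, 8.49 and 7.66 in depleted cells, a difference of -0.72 ± 0.27 (SE) that did not pass (adjusted p = 0.0706). The difference between these 2 responses of Krt15 was 1.05 ± 0.38 (SE) and did not pass its own test (adjusted p = 0.167). Krt14, the type I partner of Krt5, read 5.12, 6.84 and 5.11 in D21 whole, 8.34, 5.11 and 7.51 in NP whole, 7.12, 7.93 and 7.96 in D21 depleted and 8.50, 7.36 and 8.93 in NP depleted cells. Its whole over depleted values of -1.98 ± 0.76 in D21 and -1.28 ± 0.76 in NP rats (SE) did not pass (limma, adjusted p = 0.0815 and 0.223), and the NP groups overlapped.

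Krt4 and Krt19 were also lower in NP whole than in NP depleted cells. The log2 fold change was -2.65 ± 0.78 (SE, adjusted p = 0.0227) for Krt4 and -1.22 ± 0.31 (SE, adjusted p = 0.0110) for Krt19. In D21 rats Krt4 gave -2.10 ± 0.78 (SE), with no overlap between whole and depleted cells, but did not pass (adjusted p = 0.0719), and its difference of responses of 0.55 ± 1.11 (SE) did not pass either (adjusted p = 0.819). Krt18 had a similar value of -1.28 ± 0.44 (SE) and an adjusted p of 0.0460, but its unadjusted p missed the threshold. In D21 rats, none of the 5 simple keratins passed, and their median was 0.10. No simple keratin had a difference of differences that passed (adjusted p from 0.143 for Krt19 to 0.674 for Krt7).

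**Figure D2:**
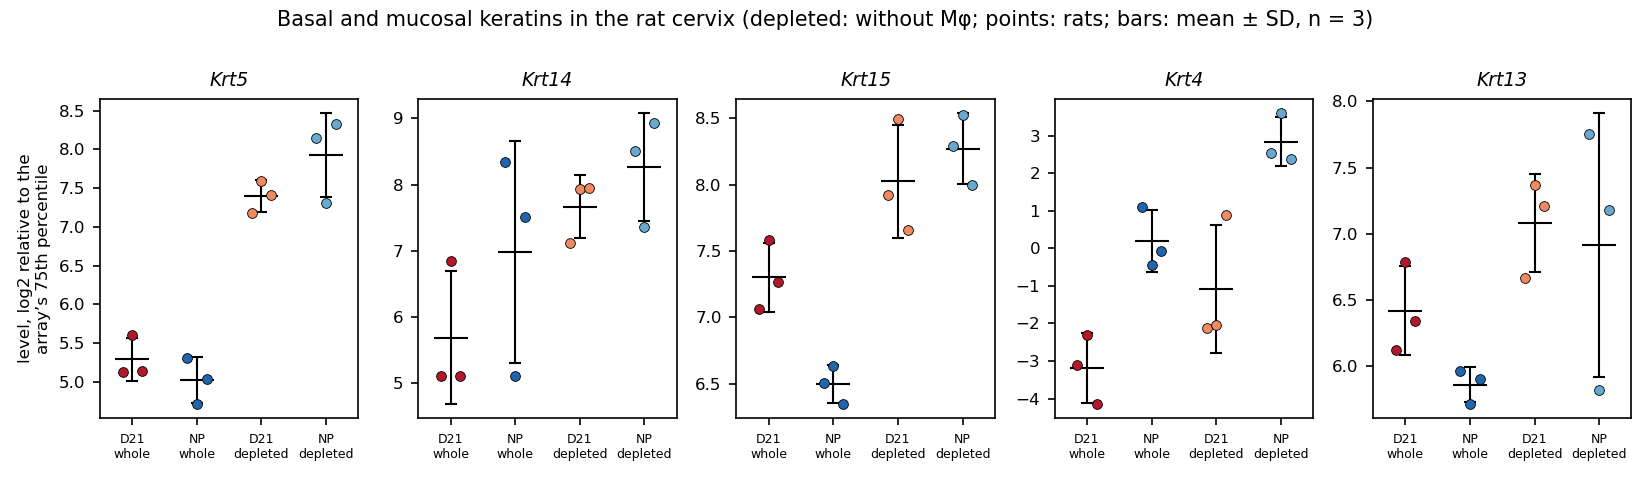
Levels of the basal keratins Krt5, Krt14 and Krt15 and the mucosal keratins Krt4 and Krt13 (y axis, log2 over each array's 75th percentile, own scale in each panel) in each rat of the 4 groups (x axis), with the mean ± SD of 3 rats. Krt5 splits by depletion, with 4.72 to 5.60 in whole and 7.18 to 8.32 in depleted cells, while Krt4 is lower in D21 than in NP both in whole and in depleted cells.

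Several genes that anchor the keratin network went the way of Krt5. Of 10 hemidesmosome genes, whose products tie basal keratin filaments to the basement membrane, 5 were lower in whole than in depleted cells in either state. None passed the threshold as higher, but Cd151 and Dst had positive values in both states. Cd151 gave 0.99 in D21 (limma, adjusted p = 0.0256) and 0.59 in NP rats, and Dst gave 0.26 and 0.87 (limma, adjusted p = 0.0374 in NP rats). Col17a1, a transmembrane collagen of the hemidesmosome, had log2 fold changes of -3.02 in D21 (adjusted p = 0.000158) and -3.61 in NP rats (adjusted p = 1.06e-05). Itgb4, an integrin chain of the same structure, gave -2.96 in NP rats (adjusted p = 7.05e-05). Of 11 desmosome and plakin genes tested, 2 were lower in D21 whole cells and 6 in NP whole cells. The shares lower in whole cells among all genes tested were 7.72% in D21 and 10.8% in NP rats. Dsp, which encodes desmoplakin, gave -2.05 in D21 (adjusted p = 0.0245) and -2.59 in NP rats (adjusted p = 0.00411).

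The medians of these lists can be set beside all genes. The hemidesmosome median was -1.16 for D21 and -2.02 for NP rats, and the desmosome median was -0.72 and -1.95, where the medians over all genes tested were -0.06 and -0.04. Of all genes tested, 10% were higher and 7.72% lower in whole cells in D21 rats, and 13.6% and 10.8% in NP rats. Of keratinocyte transcription factors, whole cells were lower for 4 of 7 tested in D21 rats and for 4 of 6 in NP rats. Immediate-early genes, known to be induced quickly in handled cells, were also lower in whole cells, for 14 of 18 tested in D21 rats and for 13 of 16 in NP rats. In D21 rats 1 of them (Klf2) was higher in whole cells. Of the 10 epithelial identity genes, 4 were lower and 1 was higher in whole cells in D21 rats, and 6 were lower in NP rats. Of endothelial genes tested, 4 of 10 were higher in whole cells in D21 rats and 3 of 9 in NP rats, where 1 (Vwf) was lower. Their part in the keratin differences was not tested, and neither was that of the Mφ and stromal lists given above.

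Intermediate filament genes that are not keratins went both ways. In D21 rats 2 of 11 tested were higher in whole cells (Vim and Des) and 2 were lower (Nes and Lmna), where 10% and 7.72% of all genes were. In NP rats 3 of 8 tested were higher, Vim and Des among them, and 1 was lower (Lmna), where 13.6% and 10.8% of all genes were. With so few genes tested, these counts are not read as a result about the list. Vim and Des, which encode the vimentin and desmin filaments of stromal and muscle cells, thus went the other way from Krt5. Vim was higher in whole cells by 1.25 on the log2 scale in D21 (adjusted p = 0.00852) and by 1.92 in NP rats (adjusted p = 0.000218). Des was higher by 2.08 (adjusted p = 0.00825) and 5.35 (adjusted p = 6.8e-06).

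Higher in whole than in depleted cells were Krt75, a type II chain of the hair follicle, and the hair keratins Krt83 and Krt85. They were 3 of 20 tested in D21, where 10% of all genes were higher, and 3 of 20 in NP rats, where 13.6% were. Krt75 read 2.71, 2.93 and 2.40 in D21 whole and -0.53, -0.19 and -0.82 in D21 depleted, a log2 fold change of 3.19 ± 0.46 (SE, adjusted p = 0.00127). In NP rats it read 1.53, 1.19 and 1.01 in whole and -0.91, 0.74 and -1.41 in depleted cells, a change of 1.77 ± 0.46 (SE, adjusted p = 0.0119). Krt75 was also higher in D21 whole than in NP whole, by 1.44 ± 0.46 (SE), with an adjusted p of 0.0891.

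Krt85 read 3.01, 2.14 and 2.63 in D21 whole and 2.96, 1.32 and 2.06 in NP whole cervix, so the whole groups overlapped. It read 0.27, 0.02 and -0.31 in D21 depleted cells and -4.30, -5.12 and -3.84 in NP depleted cells, where 1 of 3 arrays was well above background. The log2 fold change of whole over depleted was 2.60 ± 0.44 (SE, adjusted p = 0.00321) in D21 and 6.53 ± 0.44 (SE, adjusted p = 2.56e-06) in NP rats. The difference between the 2 responses was -3.93 ± 0.62 (SE, adjusted p = 0.0102). As 2 of the 3 NP depleted arrays were not well above background, the sizes set against that group depend on how background is handled. With normexp background correction they were 4.66 for NP whole over NP depleted, 2.61 for D21 depleted over NP depleted and -2.28 for the difference of responses, which then did not pass, as it did not with the slide as a block.

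Krt83 ran close to Krt85 on whole arrays. It read 2.70, 2.08 and 2.57 in D21 whole, 2.92, 1.38 and 2.02 in NP whole, 0.62, 0.93 and 0.01 in D21 depleted and -2.18, -3.55 and -2.26 in NP depleted. Its log2 fold change of whole over depleted was 1.93 ± 0.46 (SE, adjusted p = 0.0159) in D21 and 4.77 ± 0.46 (SE, adjusted p = 2.29e-05) in NP rats. The difference of the 2 responses was -2.84 ± 0.65 (SE, adjusted p = 0.0471), and it passed under 9 of 22 alternatives. Krt83 and Krt85 were 2 of 21 keratins with a lower response in D21, against 1.95% of 14565 genes, and none was higher, against 0.439%. Between the depleted groups both were higher in D21, Krt83 by 3.18 ± 0.46 (SE, adjusted p = 0.00273) and Krt85 by 4.41 ± 0.44 (SE, adjusted p = 0.000323). In D21 whole against NP whole neither passed the test (limma, adjusted p = 0.696 and 0.546).

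Krt83 and Krt85 were lower in depleted cells, more so in NP rats, and the stromal lists were lower there too. The fibroblast list averaged 3.94 ± 0.20 in D21 whole, 3.85 ± 0.11 in NP whole, 2.29 ± 0.46 in D21 depleted and -0.56 ± 0.67 in NP depleted (SD, n = 3 each). The smooth muscle list averaged 3.80 ± 0.22, 4.66 ± 0.23, 1.36 ± 0.59 and 0.13 ± 0.25. This group order was not particular to these 2 lists. In the same order of groups, the Mφ list averaged 1.19, 0.85, -2.96 and -3.53. The skeletal muscle list (4 genes used) averaged -0.85, 1.59, -2.34 and -3.56. The endothelial list was instead lowest in D21 depleted cells, at -0.75 against -0.59 in NP depleted cells. The part of stromal or any other cells in the Krt75, Krt83 and Krt85 signals was not tested. Of the other hair keratins, Krt1-5, Krt31 and Krt40 were well above background on 5, 5 and 1 of the 12 arrays and the remainder on none.

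**Figure D3:**
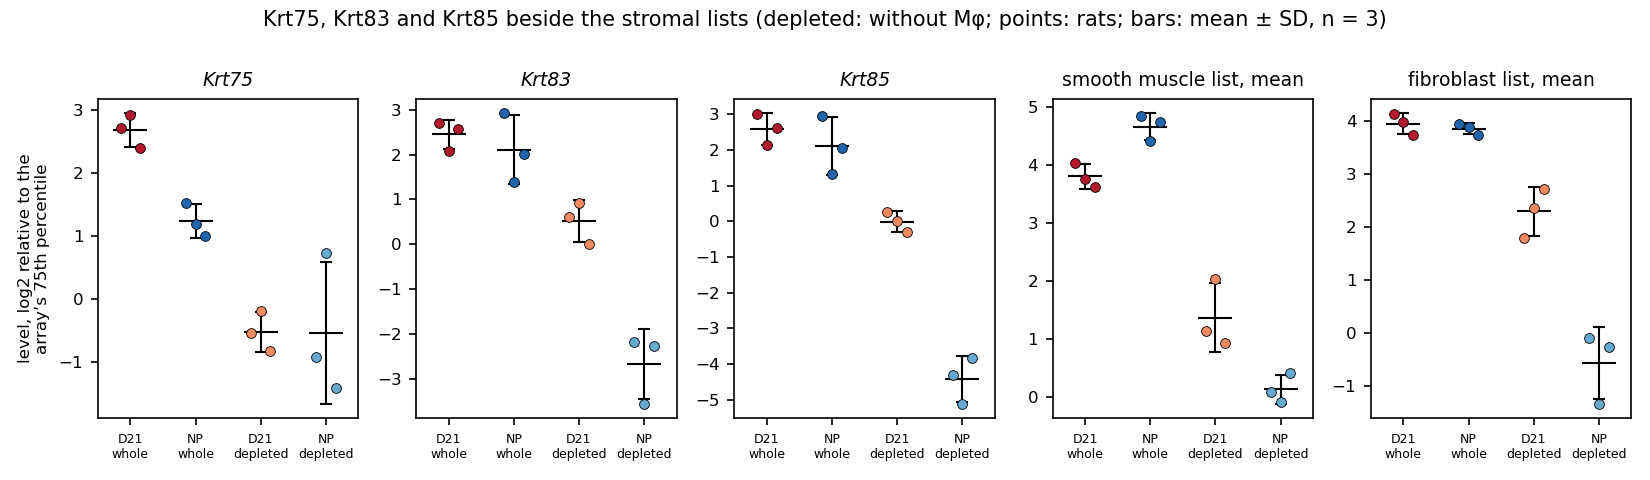
Levels of Krt75, Krt83 and Krt85 and the mean levels of the smooth muscle and fibroblast lists (y axis, log2 over each array's 75th percentile, own scale in each panel) in each rat of the 4 groups (x axis), with the mean ± SD of 3 rats. Krt83, Krt85 and both lists share a lowest NP depleted group, below D21 depleted and both whole groups. Its means were -2.66 and -4.42 for Krt83 and Krt85, 0.13 for smooth muscle and -0.56 for fibroblasts.

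The keratins of cornified and wounded epithelium varied widely between rats of a group. Krt10, the type I chain of cornifying cells, read 3.08, -4.77 and 4.14 in NP whole rats 8, 9 and 10 and 4.88, -3.98 and 4.98 in NP depleted rats 5, 6 and 7. In D21 rats it read -6.57, -1.66 and -6.50 in whole and -6.48, -5.63 and 2.74 in depleted cells. Rats of a group thus stood far apart in all groups, but the highest D21 whole rat, at -1.66, stayed below the highest rat of each other group. Only 1 array of each D21 group was well above background. NP whole rat 9 was not well above background. In NP depleted cells, where all 3 arrays were well above background, the highest rat was 498-fold above the lowest.

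Krt16, a type I chain of activated keratinocytes, split the same rats. It read 5.72, -4.04 and 5.57 in NP whole, 6.73, -1.83 and 6.65 in NP depleted, 0.21, 2.64 and -2.81 in D21 whole and 0.45, -0.37 and 5.62 in D21 depleted cells. NP whole rat 9 was again not well above background. In NP depleted cells, with all 3 arrays above it, the highest rat was 379-fold above the lowest. Krt17, which Krt16 often accompanies, read 7.33, 3.66 and 6.81 in NP whole and 7.96, 5.50 and 8.19 in NP depleted cells. The SE of the log2 fold change was 2.95 for Krt16 between the whole groups and 3.15 for Krt10 between the depleted groups. No difference in Krt1, Krt10, Krt12, Krt14, Krt16, Krt17 or Krt78 passed the threshold in any of the 4 comparisons.

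The within-group SD was computed for each gene well above background on at least 6 arrays. Over 14629 such genes the median was 0.43 and the 90th percentile 0.90. Over 21 keratins the median was 0.96, with 11 keratins above that 90th percentile. Krt10 (4.58) and Krt16 (4.29) were above the 99th percentile of 1.71, followed by Krt12 (1.60), Krt17 (1.37), Krt23 (1.31) and Krt1 (1.29). Of the basal keratins, Krt5 (0.35) and Krt15 (0.29) lay below the median of all genes and Krt14 (1.08) above the 90th percentile. Of the simple keratins, Krt19 (0.38) lay below that median and the other 4 above it, from 0.60 for Krt18 to 0.96 for Krt20.

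The same rats stood at the ends for most of these genes. A set of 10 keratins was ranked within each group. It held the stratified, wound and appendage keratins Krt1, Krt4, Krt10, Krt12, Krt13, Krt16, Krt17, Krt75 and Krt78, with the basal Krt14 added. The basal Krt5 and Krt15 were not in the set. Krt5 too was lowest in NP whole rat 9 and NP depleted rat 6, but Krt15 was lowest in NP whole rat 10 and highest in NP depleted rat 6. NP whole rat 9 was the lowest of its group for 9 of 10, NP depleted rat 6 for 8 of 10, and D21 depleted rat 1 for 6 of 10. D21 whole rat 6 was the highest for 9 of 10 and D21 depleted rat 4 for 7 of 10. The cornified envelope list (8 genes used) split likewise, at 3.02, -2.66 and 3.70 in NP whole rats 8, 9 and 10 and 2.53, -1.71 and 2.19 in NP depleted rats 5, 6 and 7. All NP rats were taken in proestrus by vaginal smear, and no finer staging of a rat was given in the sources used here.

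**Figure D4:**
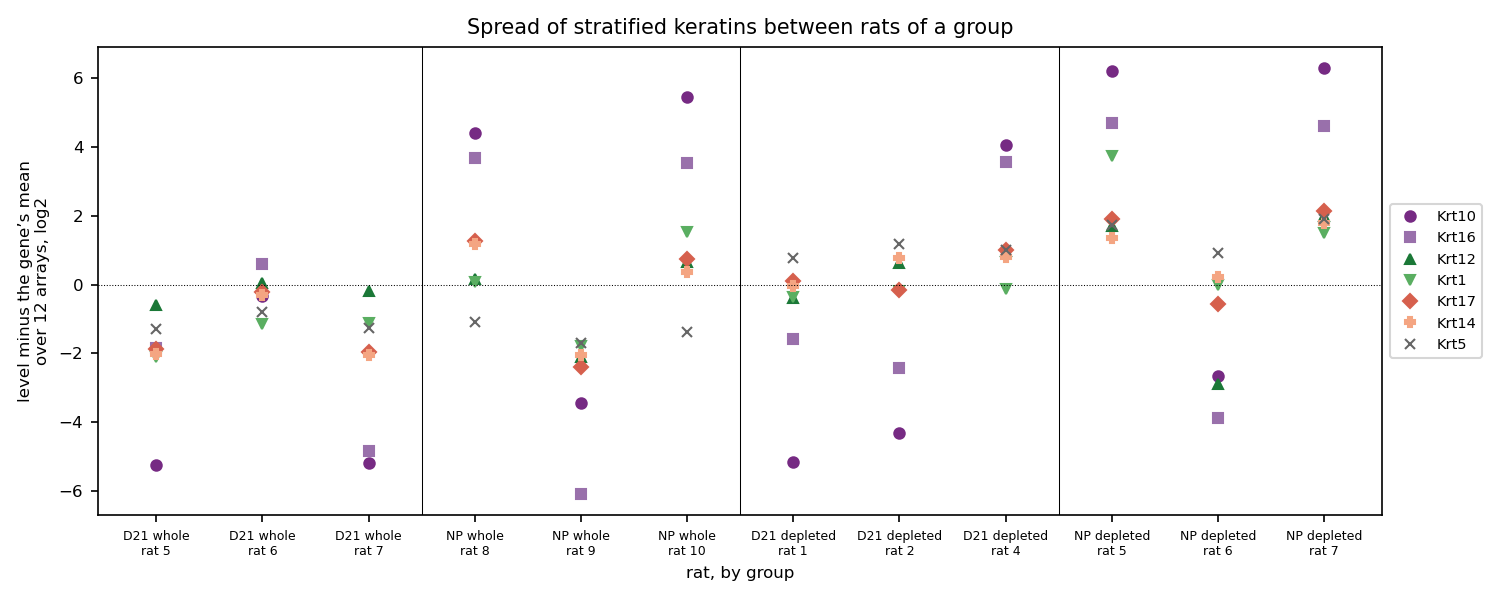
Level of 7 keratins minus the mean of each gene over the 12 arrays (y axis, log2) for each rat (x axis), with the groups set apart by vertical lines. Krt10 and Krt16 are far below the other rats of the group in NP whole rat 9 and NP depleted rat 6, while Krt5 (crosses) had an SD of 0.30 and 0.54 in those groups.

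Several calls between groups changed when such a rat was left out. Without NP whole rat 9, Krt14 was lower in D21 whole than in NP whole, with a log2 fold change of -2.23 (adjusted p = 0.0571). Without NP depleted rat 6, Krt1 was lower in D21 depleted than in NP depleted cells, at -2.85 (adjusted p = 0.108). Krt13 without that rat was lower in NP whole than in NP depleted cells, at -1.60 (adjusted p = 0.00391), against -1.05 (adjusted p = 0.0766) with it. Krt12 and Krt20 passed in the same comparison and direction without that rat, at -2.28 (adjusted p = 0.0368) and -1.62 (adjusted p = 0.00840), and Krt18 passed without NP whole rat 9, at -1.79 (adjusted p = 0.00608). Without NP whole rat 9, Krt14 also passed as lower in D21 whole than in D21 depleted cells, at -1.98 (adjusted p = 0.0308), as it did without D21 whole rat 6, at -2.56 (adjusted p = 0.0717). As NP whole rat 9 is in neither D21 group, the value of -1.98 was that of all arrays. Only the spread shared by the groups became smaller (SE 0.55 against 0.76).

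Krt12, Krt23, Krt78 and Krt80 did not pass the threshold in any comparison with all arrays. Krt12, known as a corneal type I chain, read 0.23 to 3.01 in NP whole and -0.53 to 4.34 in NP depleted cells. Krt78 ranged from -1.43 to 1.04 over the 12 arrays. Krt23 ranged from -3.04 to 1.74, with NP depleted rat 6 the highest. Krt80 averaged -1.25 ± 0.40 in D21 whole and -2.98 ± 0.50 in D21 depleted cells (SD, n = 3), with no overlap, but the log2 fold change of 1.73 ± 0.78 (SE) gave an adjusted p of 0.126. Without NP whole rat 9, which stood lowest of all rats at -5.50, the same difference passed (adjusted p = 0.0112). That rat is in neither D21 group, so the value stayed at 1.73 and only the shared spread became smaller (SE 0.36). Krt76, a keratin of oral palate that was not tested, was well above background on 2 of 3 arrays in each NP group. It was so on 1 of 3 in D21 whole and on none in D21 depleted cells. Its levels ran from -3.67 to 2.06 in NP whole, with rat 10 the highest, and from -3.72 to -0.13 in NP depleted cells, with rat 5 the highest.

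**Figure D5:**
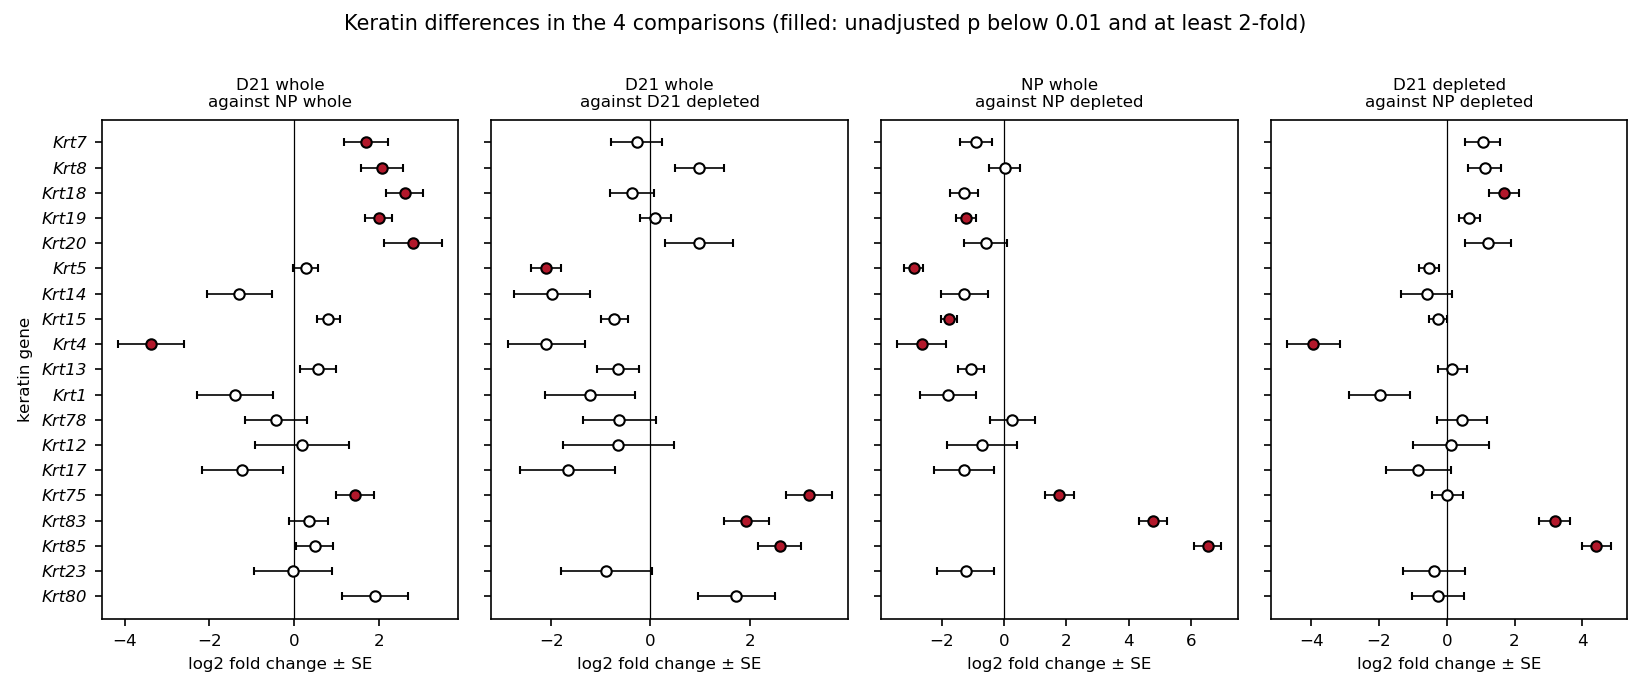
Log2 fold change ± SE (x axis) of 19 keratins (y axis) in the 4 comparisons, first group over second, with filled points for an unadjusted limma p below 0.01 and at least 2-fold; Krt10 and Krt16, with SEs near 3, are left out. The simple keratins lie to the right of 0 in both comparisons of D21 with NP, and Krt4 lies to the left in all 4 panels.

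Likeness over the 12 arrays was described by Pearson's r among 10902 other genes that were well above background on every array. The 12 points share 4 groups, so r holds differences between groups as well as between rats and is given with no test. For Krt8 the 5 most alike were Fuca2 (0.95), Vasn (0.92), Susd2 (0.92), Fam3b (0.92) and Scin (0.91). For Krt5 they were Igsf3 (0.98), Ston2 (0.98), Tp63 (0.97), which encodes the p63 factor of basal cells, an unnamed transcript (0.97) and Jag2 (0.97), which encodes a Notch ligand. For Krt13 they included Aldoa (0.97) and 3 transcripts without a gene symbol (0.91 to 0.94). Among the 16 keratins detected on all arrays, Krt14 and Krt17 were the most alike (r = 0.95), followed by Krt8 with Krt20 (0.86) and Krt5 with Krt15 (0.86).

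Slides did not hold the groups evenly, and values within a slide are given for the main results. On slide 4, which held all 3 D21 whole rats and NP whole rat 10, the D21 minus NP difference was 2.83 for Krt18, 2.03 for Krt8, 1.49 for Krt19, 2.37 for Krt20, 1.21 for Krt7 and -3.10 for Krt4. On slide 3, with NP whole rats 8 and 9 and NP depleted rat 7, the whole minus depleted difference was -3.31 for Krt5, -1.42 for Krt15, 4.41 for Krt83 and 5.98 for Krt85. For D21 depleted against NP depleted, Krt4 gave -5.10 on slide 1 and -1.50 on slide 3, and Krt85 gave 4.73 and 3.53. D21 whole and D21 depleted shared no slide. On the scan day that held all D21 whole rats and D21 depleted rat 4, whole minus depleted was -2.12 for Krt5, 2.44 for Krt83 and 2.90 for Krt85. All of these differences kept the sign of the pooled value, with 1 to 3 rats on each side. With the slide as a block in the fit, however, Krt4, Krt7, Krt20 and Krt75 no longer passed in D21 whole against NP whole, nor Krt83 and Krt85 in D21 whole against D21 depleted, nor Krt4 in NP whole against NP depleted, nor the difference of responses of Krt83 and Krt85. Fewer of all genes passed then too, as in D21 whole against NP whole, with 434 higher and 280 lower against 758 and 436.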

How the data were processed

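RNA of 12 rats was labelled with Cy3 and hybridised to Agilent Rat 4x44K v3 arrays. The authors deposited the scanner output of Agilent Feature Extraction, which holds the background-corrected intensity of each spot (build rn4), and a value table in which each intensity is a linear ratio to the 75th percentile of its array; the table matched the scanner values and served as an alternative. Here control spots and outlier flags were left out, spots of a probe were averaged, and log2 intensity was taken relative to that percentile. A gene with several probes was represented by the one with the highest mean over the 12 arrays. Genes whose 3 arrays were all well above background in a compared group were fitted with limma 3.58.1 (R 4.3.3), with 4 group means over all 12 arrays, after the code was tested on simulated data. The threshold was that of the Methods (unadjusted p below 0.01 together with 2-fold), and p-values adjusted by Benjamini-Hochberg accompany it. The difference between 2 responses passed at an adjusted p below 0.05. Alternatives were other backgrounds, scalings, filters, weights, batch blocks, the methods' t-test and each array left out. Every tested keratin is named; of each other list at most the 2 largest and 2 smallest changes that passed, and the 5 genes most like Krt8, Krt5 and Krt13, of which 1 is not reported here. The keratins and lists were chosen with earlier results of these data known. With 3 rats a group, p-values measure the spread between these rats, and the number of arrays limits precision.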

Additional observations from a re-analysis of the deposited data

Results flagged for a closer look

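The hair keratins Krt83 and Krt85 passed a test of whether the response to depletion differed between D21 and NP rats. The whole minus depleted difference in D21 less that in NP was -2.84 on the log2 scale for Krt83 (adjusted p = 0.0471) and -3.93 for Krt85 (adjusted p = 0.0102, limma with Benjamini-Hochberg adjustment). For both genes every whole rat stood above every depleted rat, in D21 and in NP. The call for Krt83 was lost in 13 of 22 alternatives, among them normexp background correction, no filter on background, the slide or the scan day as a block, and 9 of the 12 omissions of 1 array. The call for Krt85 was lost in 2 of 21, normexp and the slide as a block.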

How the results depend on the processing

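No paired analysis was possible because the groups compared came from different rats and share no rat number. The 24 keratin differences that passed were recomputed 612 times in all, of which 525 still passed, 87 did not and 0 turned direction. Of 1941 values for the 78 that had not passed, 26 passed, and 0 of those 26 passed in the direction opposite to the value with all arrays. Krt15, Krt83 and Krt85 in NP whole against NP depleted passed under every alternative run.

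By the methods' t-test, 3 keratins were higher in D21 whole than in NP whole (against 6 by limma, with Krt7, Krt8 and Krt18 lost), 2 were lower in NP whole than in NP depleted (against 4) and 0 were lower in D21 depleted than in NP depleted (against 1). After Benjamini-Hochberg adjustment of that test, 1 keratin was lower in NP whole than in NP depleted, and 0 passed as higher or lower in D21 whole against NP whole, D21 whole against D21 depleted or D21 depleted against NP depleted. Few or no genes of any kind passed there. Of all genes, 0 of 14056, 8 higher and 3 lower of 14256, and 0 of 13406 passed in these 3 comparisons. In NP whole against NP depleted, 463 were higher and 242 lower of 13409. With the slide as a block, 3 were higher and 0 lower in D21 whole against NP whole, 1 was higher in D21 whole against D21 depleted, and 0 differed in response. With the scan day as a block, 2 keratins were lower in D21 whole than in D21 depleted and 1 differed in response (Krt85). Over all genes, 812 were then higher and 642 lower, and 55 and 344 in response. With the 6 arrays of D21 whole and D21 depleted alone, 3 were lower in whole cells (Krt1, Krt5 and Krt14).

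With no filter on background, 2 were lower in D21 whole than in NP whole, 2 were lower in D21 depleted than in NP depleted, and 1 differed in response (Krt85). With the filter on every array, 0 were lower in D21 whole than in NP whole and 1 differed in response (Krt83). That filter left Krt4 out of the former comparison and Krt85 out of the latter before any test. Neither was well above background on every array compared. Over all genes, 522 were then higher and 336 lower of 12293, and 37 and 145 of 10919 in response. With array weights, 2 were lower in D21 whole than in NP whole and 1 (Krt15) had a higher response in D21, as had 1 with quantile normalization. With normexp background correction 0 had a lower response. Apart from the genes that a filter left out, the cause of these changes was not tested.

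With 1 array left out in turn, the keratins higher and lower ranged from 4 to 6 and from 1 to 3 in D21 whole against NP whole, from 3 to 4 and from 1 to 2 in D21 whole against D21 depleted, from 2 to 4 and from 3 to 6 in NP whole against NP depleted, and from 2 to 4 and from 1 to 2 in D21 depleted against NP depleted. Those with a higher and lower response in D21 ranged from 0 to 1 and from 1 to 2. The calls lost most often were Krt75 and Krt7 in D21 whole against NP whole and the response of Krt83. Krt75 was lost on leaving out any 1 whole rat, any 1 D21 depleted rat or NP depleted rat 5. Krt7 was lost without any 1 D21 rat, whole or depleted, or NP whole rat 8 or 9, and Krt83 without any 1 D21 whole rat, D21 depleted rat 1 or 2, NP whole rat 8 or 10 or NP depleted rat 5 or 6. Depleted rats are in neither whole group, so for Krt75 and Krt7 between whole groups their omission changed the shared spread and not the difference. Krt75 in NP whole against NP depleted was lost without NP depleted rat 5 or 7 or NP whole rat 8. Krt4 in NP whole against NP depleted was lost without NP depleted rat 5 or 6 or NP whole rat 9 or 10, Krt18 in D21 depleted against NP depleted without NP depleted rat 5 or 7 or D21 depleted rat 2, and Krt19 in NP whole against NP depleted without NP whole rat 8. Krt20 had a higher response in D21 without NP depleted rat 6, at 2.60 (adjusted p = 0.0329).

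Taking the percentile only over probes that every array detected moved the median of all genes from -0.06 to 0.13 in D21 whole against D21 depleted and from 0.02 to -0.14 in D21 depleted against NP depleted. The share of higher among all genes that passed then went from 56.5% to 70.4% and from 72.5% to 57.6%. With normexp it went from 63.5% to 76.1% in D21 whole against NP whole.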
